A study of Homo sapiens with 10 samples.

Results

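The subject is a set of 9 genes for developmental regulators that mark or act in the serous ovarian lineage: PAX8, SOX17, MECOM, WT1, EMX2, OSR2, SOX5, LMO3 and DACH1. They were listed by name, without a threshold on a measured value but with earlier results of these data known, so their counts are a description of the list. All 9 were found among 19893 genes of the deposited matrix and among the 13330 genes tested. Single cells were sequenced in droplets from Kuramochi, a line of high-grade serous ovarian carcinoma that the labels call epithelial and BRCA2-mutant, with or without olaparib, which blocks the DNA repair enzyme PARP. The 5 conditions were cells adapted (resistant) to 320 µM olaparib (T320.A), cells adapted to 10 µM (T10.A), drug-naive cells after 9 days at 320 µM (T320.P), the same at 10 µM (T10.P), and untreated drug-naive cells (C). Each condition was present in both of 2 pools, so that UMI counts (counts of tagged RNA molecules) were added over the cells of a condition in a pool, giving 2 sums per condition. All groups come from a single cell line with its BRCA2 mutation, and cells of all conditions shared a pool, told apart by hashtag antibodies. The labels do not say whether the cells of a pool shared a droplet run. How many separate cultures stand behind the pools is not given in the sources used here, so the p-values rest on how much 2 pools differ, and that difference may be only technical.

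Serous ovarian cancers are thought to arise largely from the secretory epithelium of the fallopian tube, which descends from the Müllerian duct. Factors set in that duct and in the urogenital ridge persist in the tumour: PAX8, a paired-domain protein, and SOX17, an HMG-box protein, occupy many of the same enhancers in ovarian cancer cells, and MECOM is a zinc-finger partner of PAX8 there. WT1, a zinc-finger protein of the urogenital ridge and mesothelium, is used with PAX8 to recognise serous tumours in pathology. EMX2 is a homeodomain protein and OSR2 an odd-skipped zinc-finger protein, both with roles in urogenital development. SOX5 is an HMG-box protein without an activation domain of its own, LMO3 is a LIM-only protein that works through other factors without binding DNA itself, and DACH1 is a corepressor that acts with EYA proteins and their homeodomain partners.

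The 10 sums held 3532281 to 23189583 UMIs from 263 to 2435 cells, and a median cell had 8131 to 15213 UMIs. T10.P was the smallest condition, with 300 and 263 cells. Of the epithelial markers, KRT8 and KRT18 were abundant in all 10 sums (KRT8 at 469.7 CPM or more), EPCAM was low (1.25 to 11.9 CPM) and CDH1, the epithelial cadherin, had 0 to 11 UMIs per sum. CPM are UMIs of a gene per 1000000 UMIs of a sum, scaled by trimmed mean of M-values (TMM). The leukocyte marker PTPRC had 0 to 2 UMIs per sum. The 2 pools shared 13 cell barcodes among 7346 and 6454 cells. A sum cannot tell fewer cells with a gene from less of its RNA per cell. The shares of cells, given after the levels, do not settle this. With so few UMIs of a gene per cell, a share also falls when each cell holds less of its RNA.

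The lowest levels of most of these regulators were in cells adapted to the high dose. Of the 9 genes, 9 fell and 0 rose in T320.A against C, where 36.9% of all tested genes were lower and 37.6% were higher (edgeR quasi-likelihood test, Benjamini-Hochberg adjusted p under 0.05 over all 13330 genes). The median log2 change of the 9 was -4.28, beside a median of 0.01 over all tested genes. SOX17, the HMG-box partner of PAX8, had 4.32 and 7.03 CPM in T320.A sums, against 289 and 360.0 CPM in C sums. Its log2 change was -5.82 (SE 0.26), with an adjusted p of 4.43e-06 by edgeR, and its level was 1.75% of that in C. Every T320.A sum of SOX17 thus lay far below every C sum. DACH1, the corepressor, had 1.75 and 2.21 CPM in T320.A sums, against 61.9 and 59.8 CPM in C sums, a log2 change of -4.93 (SE 0.11). MECOM had 2.13 and 2.96 CPM in T320.A sums, against 61.8 and 55.4 CPM in C sums, a log2 change of -4.51 (SE 0.12). EMX2, the homeodomain factor, had 3.38 and 3.08 CPM in T320.A sums, against 62.0 and 63.5 CPM in C sums, a log2 change of -4.28 (SE 0.10). DACH1, MECOM and EMX2 thus stood at 3.25% to 5.15% of their C level in T320.A, with no overlap between the groups. WT1, the serous diagnostic marker, had 0.752 and 1.05 CPM in T320.A sums, against 24.0 and 25.8 CPM in C sums, a log2 change of -4.77 (SE 0.18). LMO3 had 0.752 and 2.03 CPM in T320.A sums, against 22.1 and 21.0 CPM in C sums, a log2 change of -3.92 (SE 0.21). SOX5 had 3.57 and 4.06 CPM in T320.A sums, against 60.6 and 51.1 CPM in C sums, a log2 change of -3.86 (SE 0.12). The adjusted p of these 6 falls was between 1.13e-25 and 1.07e-10 by edgeR.

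The smallest losses in the same cells were those of PAX8 and OSR2. PAX8, the paired-domain marker of the lineage, had 64.1 and 62.8 CPM in T320.A sums, against 173 and 159 CPM in C sums. That is 38.2% of its C level, a log2 change of -1.39 (SE 0.06) with an adjusted p of 1.57e-18 by edgeR. OSR2 had 18.7 and 20.6 CPM in T320.A sums, against 61.2 and 57.1 CPM in C sums, or 33.2% of its C level with a log2 change of -1.59 (SE 0.09) and an edgeR adjusted p of 4.15e-16. For both genes the groups did not overlap. In UMIs, T320.A sums still held 1023 and 1081 of PAX8 but 12 and 18 of WT1, 12 and 35 of LMO3 and 28 and 38 of DACH1.

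**Figure D1:**
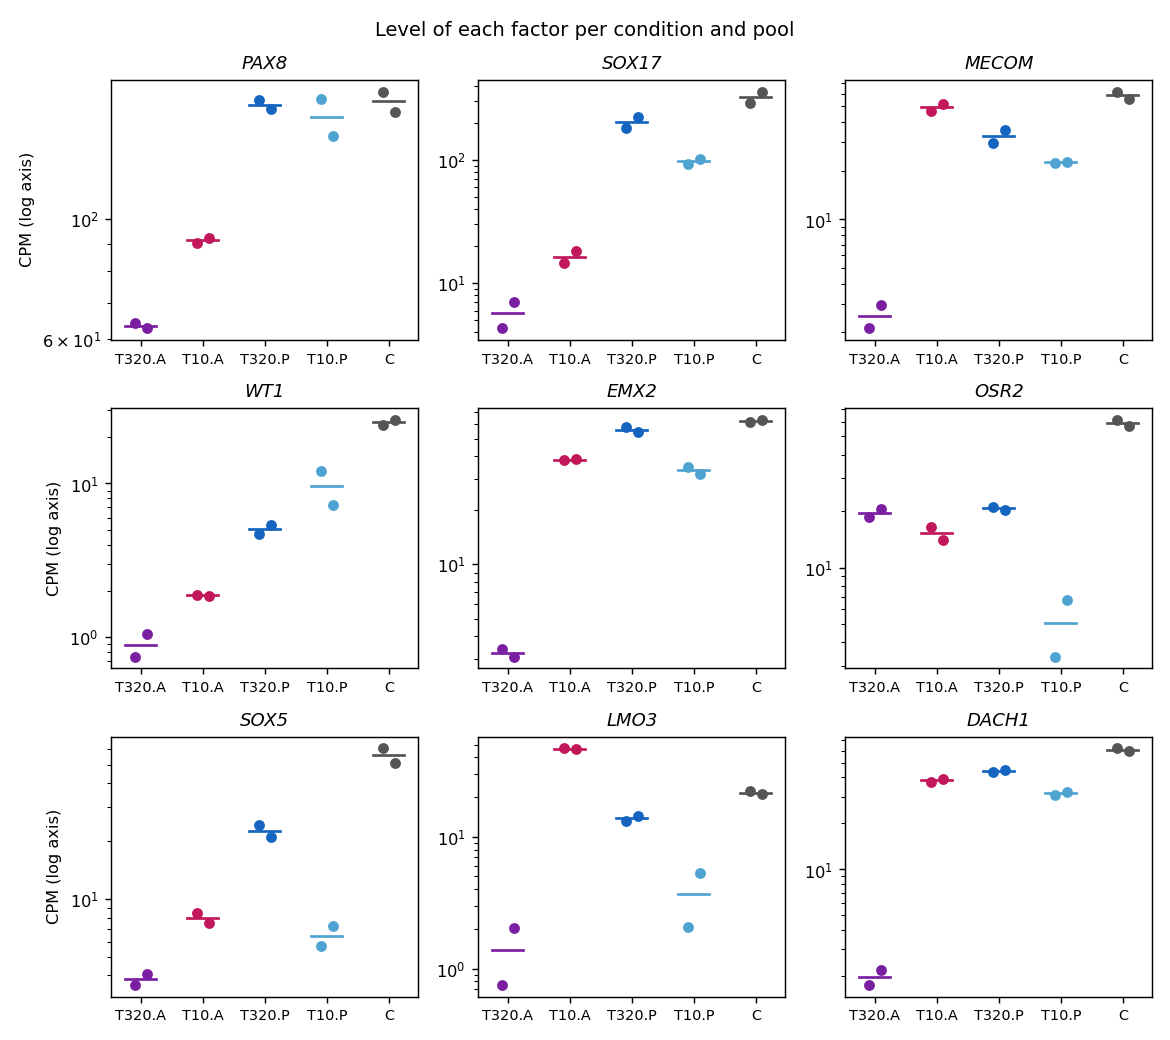
Level of each of the 9 genes in CPM (log axis, its own range per panel) in the 5 conditions; each point is the sum of 1 pool and the bar is the mean of both. T320.A sums are lowest for every gene except OSR2, whose lowest sums are those of T10.P, and LMO3 is highest in T10.A.

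Cells adapted to the low dose kept part of the set and had more LMO3 than untreated cells. In T10.A against C, 8 of the 9 genes fell, where 33.4% of all tested genes were lower, and 1 rose, where 33.7% were higher. The gene that rose was LMO3, with 46.7 and 46.2 CPM in T10.A sums, against 22.1 and 21.0 CPM in C sums, a log2 change of 1.11 (SE 0.11) and an edgeR adjusted p of 4.49e-07. LMO3 overlaps MGST1, a glutathione transferase gene, on the opposite strand, and no source used here says that counting used strand, so reads of the overlapping stretch cannot be told apart. MGST1 had 66.4 and 65.0 CPM in T10.A sums, against 153 and 143 CPM in C sums, a log2 change of -1.17, so the pair differed in opposite directions. In T10.A cells, however, both were detected together above expectation, in 43 cells against 28.7 expected in pool 1 and 31 cells against 20.6 expected in pool 2, and the part of shared reads in the LMO3 values was not tested. MECOM was close to its C level, at 47.1 and 52.0 CPM in T10.A sums, against 61.8 and 55.4 CPM in C sums, a log2 change of -0.24 (SE 0.08). Its edgeR adjusted p of 0.00666 passed the threshold, but it was lost with DESeq2 (adjusted p 0.111), without pool 1 of C (0.131) and without pool 1 of T10.A (0.108). EMX2 had 37.9 and 38.4 CPM in T10.A sums, against 62.0 and 63.5 CPM in C sums, a log2 change of -0.72. DACH1 had 37.1 and 39.4 CPM in T10.A sums, against 61.9 and 59.8 CPM in C sums, a log2 change of -0.67. Both thus stood at 60.8% and 62.8% of their C level. PAX8 had 90.3 and 92.4 CPM in T10.A sums, against 173 and 159 CPM in C sums, a log2 change of -0.86. The other 4 genes were far lower. SOX17 had 14.6 and 18.2 CPM in T10.A sums, against 289 and 360.0 CPM in C sums, a log2 change of -4.31 (SE 0.22) and an edgeR adjusted p of 1.24e-05. WT1 had 1.89 and 1.87 CPM in T10.A sums, against 24.0 and 25.8 CPM in C sums, a log2 change of -3.72 (SE 0.16). SOX5 had 8.49 and 7.48 CPM in T10.A sums, against 60.6 and 51.1 CPM in C sums, a log2 change of -2.80 (SE 0.10). Together with OSR2, at 25.7% of its C level in T10.A, these were 5.04% to 25.7% of C.

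Set against the 9-day cells at the same dose, the low-dose adapted cells split the set into rises and falls. In T10.A against T10.P, 4 of the 9 rose, where 31.4% of all tested genes were higher, and 3 fell, where 29.3% were lower. LMO3 rose most, with 46.7 and 46.2 CPM in T10.A sums, against 2.06 and 5.29 CPM in T10.P sums, a log2 change of 3.64 (SE 0.25) and an edgeR adjusted p of 3.47e-09. OSR2 had 16.4 and 14.1 CPM in T10.A sums, against 3.35 and 6.73 CPM in T10.P sums, a log2 change of 1.58. MECOM had 47.1 and 52.0 CPM in T10.A sums, against 22.4 and 22.8 CPM in T10.P sums, a log2 change of 1.13. No T10.A sum of these 3 genes reached down to a T10.P sum. DACH1 passed with a small log2 change of 0.28 (SE 0.10) and an edgeR adjusted p of 0.0127, but in cells thinned to 3000 UMIs the change was -0.082 with an adjusted p of 0.800. That call was also lost with library totals alone (0.432), DESeq2 (0.0814), without pool 1 of T10.P (0.0965) and without pool 2 of T10.A (0.0778). SOX17 fell, with 14.6 and 18.2 CPM in T10.A sums, against 93.6 and 103 CPM in T10.P sums, a log2 change of -2.59. WT1 had 1.89 and 1.87 CPM in T10.A sums, against 12.1 and 7.21 CPM in T10.P sums, a log2 change of -2.34. PAX8 had 90.3 and 92.4 CPM in T10.A sums, against 168 and 143 CPM in T10.P sums, a log2 change of -0.76. The largest edgeR adjusted p of the 3 falls was 0.000404. EMX2 and SOX5 did not pass, with edgeR adjusted p of 0.0662 and 0.243, although EMX2 passed in cells of a deposited list of 7762 cells whose name carries the tag g1, with a log2 change of 0.52 and an adjusted p of 0.000278. The listed cells held 0.0506 UMIs of the proliferation gene MKI67 each on average, against 2.39 in the other cells.

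At the high dose every change that passed was a fall. In T320.A against T320.P, 8 of the 9 fell, where 32.6% of all tested genes were lower, and 0 rose, where 34.1% were higher. EMX2 had 3.38 and 3.08 CPM in T320.A sums, against 57.9 and 54.3 CPM in T320.P sums, a log2 change of -4.12 (SE 0.11) and an edgeR adjusted p of 8.86e-24. DACH1 had 1.75 and 2.21 CPM in T320.A sums, against 43.5 and 44.7 CPM in T320.P sums, a log2 change of -4.46. SOX17 had the largest fall of the 9, with a log2 change of -5.14 (SE 0.26). MECOM, LMO3, SOX5 and WT1 fell as well, with log2 changes of -3.67, -3.28, -2.56 and -2.46. PAX8 had 64.1 and 62.8 CPM in T320.A sums, against 167 and 160.2 CPM in T320.P sums, a log2 change of -1.37, the smallest fall of the 8. The exception was OSR2, with 18.7 and 20.6 CPM in T320.A sums and 21.1 and 20.3 CPM in T320.P sums, which overlapped with a log2 change of -0.07 (SE 0.11) and an edgeR adjusted p of 0.577. OSR2 turned to a rise of 0.39 with an edgeR adjusted p of 0.00960 in the listed cells alone, and with library totals alone its log2 change was -0.35 with an adjusted p of 0.00651.

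Between the adapted cells, T320.A had less of 8 genes than T10.A, where 32.4% of all tested genes were lower, and more of 1, where 33.4% were higher. LMO3, DACH1, MECOM and EMX2 differed most, with log2 changes in T320.A against T10.A of -5.03, -4.26, -4.27 and -3.56, and the largest edgeR adjusted p among these was 3.08e-12. PAX8 differed least of the 8, with a log2 change of -0.53. The SOX17 call was lost without pool 2 of T10.A (adjusted p 0.0543) and the WT1 call without pool 1 of T320.A (0.0559). OSR2 was the gene with more, by 0.37 on the log2 scale (edgeR adjusted p 0.00286), a call lost with library totals alone (adjusted p 0.0758), in cells thinned to 3000 UMIs (0.184), without pool 2 of T10.A (0.0769) and without pool 2 of T320.A (0.0518). The change from persister to adapted cells was then set at 320 µM against 10 µM in an interaction term. It was lower at 320 µM for 8 of the 9 genes, where 25.9% of all tested genes were, and higher for 0, where 23.4% were. The differences were -6.91 (SE 0.36) for LMO3, -4.80 for MECOM, -4.75 for DACH1 and -4.32 for EMX2 on the log2 scale, all with an edgeR adjusted p of 2.67e-10 or less. WT1 was the gene without a detected difference, at -0.12 (SE 0.38) with an edgeR adjusted p of 0.820.

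After 9 days of olaparib, 8 of the 9 genes were already lower, and PAX8 was the gene whose change did not pass at either dose. In T320.P against C, 8 genes fell, where 28.3% of all tested genes were lower, and 0 rose, where 26.3% were higher. In T10.P against C, 8 fell, where 29.3% were lower, and 0 rose, where 27.3% were higher. PAX8 had 167 and 160.2 CPM in T320.P sums and 168 and 143 CPM in T10.P sums, against 173 and 159 CPM in C sums, and the groups overlapped at both doses. Its log2 change was -0.02 (SE 0.06) in T320.P and -0.10 (SE 0.06) in T10.P, with edgeR adjusted p of 0.797 and 0.200. In cells of the deposited list alone, PAX8 fell in T10.P against C by 0.40 on the log2 scale, with an edgeR adjusted p of 4.21e-06, and without pool 1 of T10.P its adjusted p was 0.0136. OSR2 had 21.1 and 20.3 CPM in T320.P sums and 3.35 and 6.73 CPM in T10.P sums, against 61.2 and 57.1 CPM in C sums, log2 changes of -1.51 and -3.53. SOX5 had 24.3 and 21.0 CPM in T320.P sums and 5.67 and 7.21 CPM in T10.P sums, against 60.6 and 51.1 CPM in C sums, log2 changes of -1.30 and -3.11. LMO3 had 13.2 and 14.4 CPM in T320.P sums and 2.06 and 5.29 CPM in T10.P sums, against 22.1 and 21.0 CPM in C sums. These 3 genes, and SOX17 with 182 and 223 CPM in T320.P sums and 93.6 and 103 CPM in T10.P sums, were further below C at 10 µM than at 320 µM. MECOM had 29.7 and 35.5 CPM in T320.P sums and 22.4 and 22.8 CPM in T10.P sums, log2 changes against C of -0.85 and -1.37. DACH1 had 43.5 and 44.7 CPM in T320.P sums and 30.9 and 32.0 CPM in T10.P sums, log2 changes against C of -0.47 and -0.95. WT1 was the gene further below C at 320 µM, with 4.70 and 5.36 CPM in T320.P sums and 12.1 and 7.21 CPM in T10.P sums, log2 changes of -2.31 and -1.38. EMX2 changed little in T320.P, with 57.9 and 54.3 CPM against 62.0 and 63.5 CPM in C sums. Its log2 change of -0.16 (SE 0.07) had an edgeR adjusted p of 0.0417, which was lost in 10 of 12 alternatives, among them DESeq2 with an adjusted p of 0.211. The SOX17 fall in T320.P, -0.68 (SE 0.17), with an edgeR adjusted p of 0.0213, was lost with the compared sums alone (0.110), without pool 2 of C (0.0755) and without pool 1 of T320.P (0.110). Without that last sum, in which LMO3 also missed the threshold (0.0547), 5 genes passed as lower.

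The doses were compared directly. In T320.P against T10.P, 7 genes were higher, where 25.3% of all tested genes were, and 1 was lower, where 24.4% were. OSR2, LMO3, SOX5 and SOX17 differed by 2.02, 1.89, 1.81 and 1.04 on the log2 scale, with edgeR adjusted p of 1.84e-09, 0.000152, 5.67e-09 and 0.0105. EMX2, MECOM and DACH1 differed less, by 0.76, 0.53 and 0.49. WT1 went the other way, with 4.70 and 5.36 CPM in T320.P sums, against 12.1 and 7.21 CPM in T10.P sums, a log2 change of -0.93 (edgeR adjusted p 0.00149). The WT1 call was lost without pool 1 of T10.P (adjusted p 0.183) and in thinned cells (0.244), and the SOX17 call without either sum of T10.P (0.0650 and 0.0514). In thinned cells MECOM (0.198) and DACH1 (0.0693) also missed the threshold. PAX8 did not pass, with an edgeR adjusted p of 0.351, but was higher without pool 1 of T10.P (log2 change 0.20, adjusted p 0.0255) and in the listed cells (0.35, adjusted p 7.07e-05). T10.P sums held few UMIs of several members, 13 and 28 of OSR2, 8 and 22 of LMO3 and 22 and 30 of SOX5, from 300 and 263 cells.

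**Figure D2:**
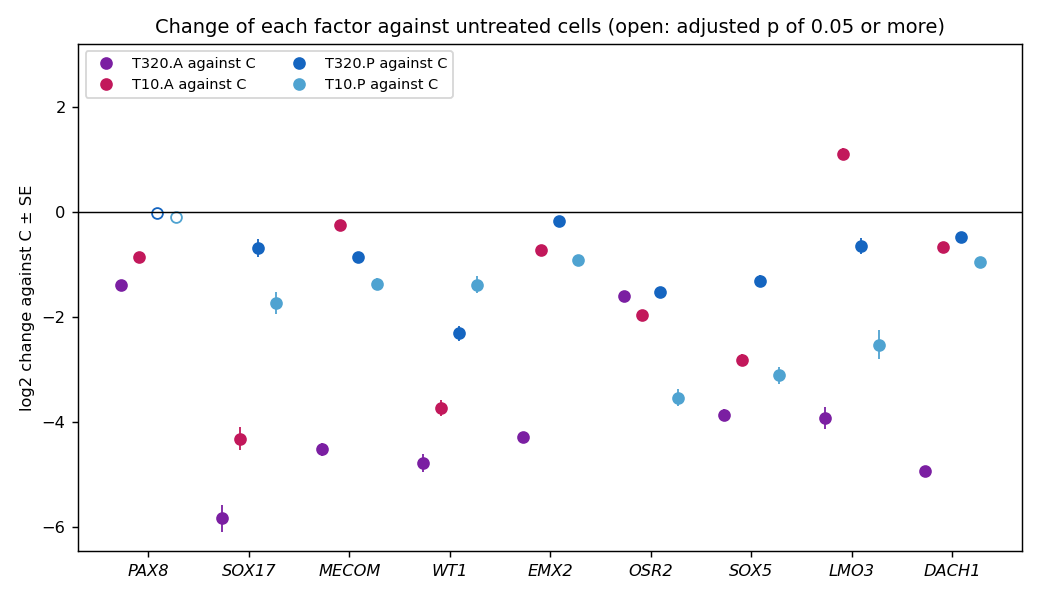
Log2 change of each gene against C with its standard error (SE, derived from the F statistic), by condition. Filled points have an edgeR adjusted p under 0.05 and open points do not. The open points are PAX8 in T320.P and T10.P, the only point above 0 is LMO3 in T10.A at 1.11, and T320.A points lie at -1.39 to -5.82.

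The order of the 5 conditions differed between the genes. Overlap of sums, here and above, was not counted over all genes, so it cannot be read as particular to the set. For SOX17 it ran from C through T320.P, T10.P and T10.A down to T320.A, and the sums of neighbouring conditions did not overlap. WT1 ran C, T10.P, T320.P, T10.A, T320.A, again without overlap. MECOM ran C, T10.A, T320.P, T10.P, T320.A, with no overlap between neighbours. DACH1 ran C, T320.P, T10.A, T10.P, T320.A, also without overlap, although its T10.A against T10.P change turned to -0.082 in thinned cells. EMX2 kept that order, and its T10.A and T10.P neighbours did not differ by the test. SOX5 had the order C, T320.P, T10.A, T10.P, T320.A too, with T10.A and T10.P not told apart by the test. LMO3 began with T10.A, then C, T320.P, T10.P and T320.A. OSR2 ran C, T320.P, T320.A, T10.A, T10.P, with the T320.P and T320.A sums overlapping. In PAX8, the C, T320.P and T10.P sums overlapped and T10.A and T320.A followed.

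The share of cells with a UMI of a gene was taken after each cell had been thinned to 3000 UMIs, since depth differed between conditions, and 11 to 35 cells per sum with fewer UMIs were left out. The shares were not tested and are given as a description. SOX17 was seen in 1.14% and 2.40% of T320.A cells and 3.79% and 4.35% of T10.A cells, against 51.7% and 56.7% of C cells. The persister shares were 37.4% and 41.3% in T320.P and 21.2% and 22.3% in T10.P. The exact (Clopper-Pearson) 95% intervals, which cover counting error only, were 2.95% to 4.78% and 3.39% to 5.48% in the T10.A pools and, with the fewest cells, 16.5% to 26.6% and 17.1% to 28.1% in the T10.P pools. Most C cells thus showed SOX17 at this depth, and few adapted cells did. Whether fewer cells held SOX17 or each held less of its RNA was not tested. PAX8 was seen in 15.0% ± 0.200 of T320.A cells, 18.5% ± 0.127 of T10.A cells, 38.2% ± 4.54 of T320.P cells, 35.5% ± 1.50 of T10.P cells and 36.3% ± 2.04 of C cells (SD, n = 2 pools). LMO3 was seen in 0.198% and 0.601% of T320.A cells, 10.2% and 9.60% of T10.A cells and 6.93% and 6.41% of C cells. Of the other genes, MECOM was in 0.764%, EMX2 in 0.789%, DACH1 in 0.576%, SOX5 in 0.811% and WT1 in 0.208% of T320.A cells on average. The same genes were in 10.2%, 8.11%, 7.63%, 2.43% and 0.611% of T10.A cells and in 15.6%, 17.1%, 17.0%, 14.6% and 7.58% of C cells. In T320.P they were in 9.68%, 16.2%, 12.7%, 5.83% and 1.42% of cells, and in T10.P in 7.23%, 9.51%, 9.83%, 1.94% and 2.70%. On average, EMX2 and DACH1 were thus in fewer T10.A than T10.P cells, although their levels in CPM were higher in T10.A. OSR2 was in 4.94% of T320.A cells, 4.36% of T10.A cells, 7.24% of T320.P cells, 1.94% of T10.P cells and 16.4% of C cells. In every pool, 9 genes were below C in T320.A, 8 in T10.A, 7 in T320.P and 8 in T10.P. This count was not made over all genes, so it cannot be read as particular to the set.

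Free RNA in droplets gives some cells a UMI of a gene they do not express, and no other cell type was present to measure it. If all conditions of a pool shared a droplet run, which the labels do not state, the lowest condition limits it. That limit was 0.208% for WT1, 0.400% for LMO3, 0.576% for DACH1, 0.764% for MECOM and 0.789% for EMX2, all in T320.A. The T10.A shares of MECOM, EMX2, LMO3 and DACH1 were 10 or more times that limit. Those of SOX17, SOX5 and WT1 were much nearer to it, at 4.07%, 2.43% and 0.611% in T10.A, against 1.77%, 0.811% and 0.208% in T320.A. PAX8 was nearer still, at 18.5% in T10.A against 15.0% in T320.A. OSR2 was at 4.36% in T10.A, and its lowest share was 1.94%, in T10.P. The part of free RNA in these shares was not tested. Median depth before thinning was 8211 and 9680 UMIs in T320.A and 8131 and 9183 UMIs in T10.A. Without thinning, SOX17 was seen in 4.38% of T320.A cells, 11.4% of T10.A cells and 82.5% of C cells.

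**Figure D3:**
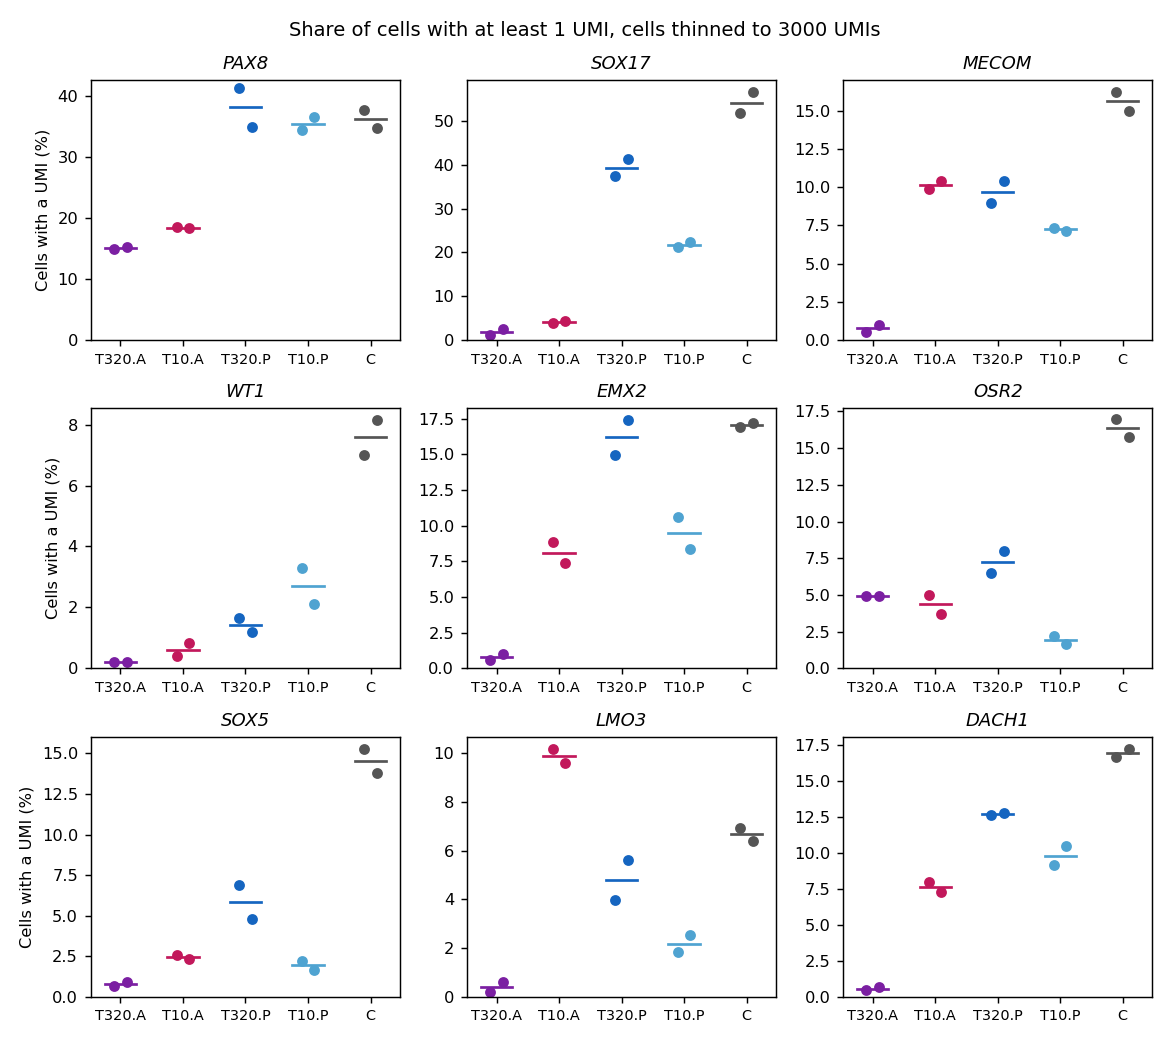
Share of cells (%) with at least 1 UMI of each gene, every cell thinned to 3000 UMIs, by condition; each point is 1 pool and the bar the mean of both (y axes start at 0 and differ between panels). SOX17 ranges from 1.77% in T320.A to 54.2% in C, and LMO3 is highest in T10.A at 9.89%.

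Within T10.A, the same cells tended to hold several of the genes that remained. For each pair, the number of cells with both was divided by the number expected from the single shares, which is 1 when the genes are independent, and used only where at least 5 such cells were expected in each pool. That left 18 of 36 pairs in T10.A, and 13 of them had a ratio above 1 in both pools. The same counts were 14 of 18 pairs in T320.P, 4 of 5 in T10.P and 19 of 36 in C. This count alone thus did not set T10.A apart from T320.P, and the size of the ratios is given for that reason. The 6 pairs among MECOM, EMX2, LMO3 and DACH1 had the highest ratios on the mean of both pools, although in pool 2 PAX8 with DACH1 (2.20) was level with MECOM and DACH1 (2.19). EMX2 and LMO3 were together in 36 cells against 16.2 expected in pool 1 and 33 cells against 11.0 expected in pool 2, ratios of 2.22 and 2.99. LMO3 and DACH1 gave ratios of 2.26 and 2.83. MECOM and EMX2 gave 2.22 and 2.83. For all 6, the lower of the 2 pools was at least 2.19. In C cells the same 6 pairs reached at most 1.39. PAX8 joined this group, with ratios of 2.04 and 1.89 with EMX2, 2.12 and 2.00 with LMO3, 1.96 and 2.20 with DACH1 and 1.88 and 1.34 with MECOM. SOX17, whose T10.A share was not far above its T320.A share, gave 1.48 and 1.69 with MECOM, but was on both sides of 1 with EMX2 (1.66 and 0.600), LMO3 (1.30 and 0.766) and PAX8 (1.27 and 0.881). OSR2 and LMO3 were seen together in 9 cells against 9.17 expected in pool 1 and 3 cells against 5.57 expected in pool 2, too few to read a direction. With PAX8, OSR2 gave 1.20 and 0.939. WT1 was in too few T10.A cells, 7 and 13, for any pair.

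The median of the pair ratios was 1.79 in T10.A (18 pairs), 1.14 in T320.P (18 pairs), 1.19 in T10.P (5 pairs) and 1.05 in C (36 pairs). T320.A left 1 pair, PAX8 and OSR2, with a mean ratio of 1.41 that was not above 1 in both pools. The pairs differ between conditions, because low shares leave few cells expected with both. Over the same 18 pairs shown for T10.A, the C ratios lay at 0.934 to 1.37 (means of both pools). Cells are not replicates, so no p is given. T10.A cells with the co-detected genes had more UMIs before thinning: the median was 9418 and 12020 UMIs in cells with MECOM, against 8093 and 8996 UMIs in cells without it. Split at their pool's median depth, deeper T10.A cells had 10 of 12 pairs above 1 in both pools, with a median of 1.73, and shallower ones 2 of 2, with a median of 2.43, a split added after seeing the data.

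**Figure D4:**
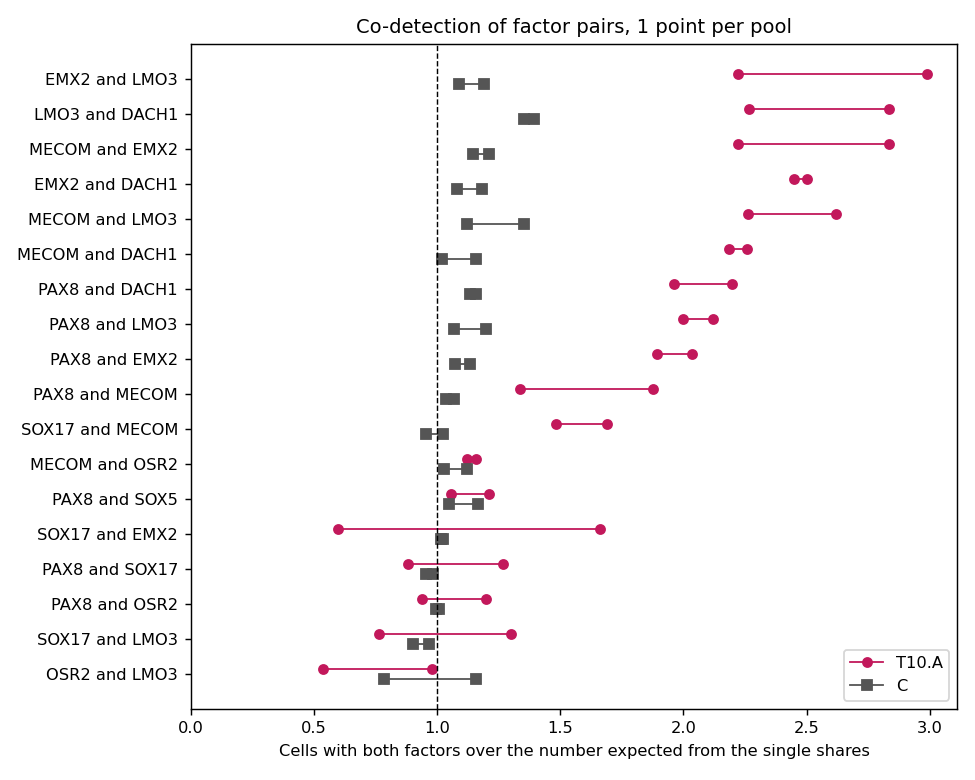
Ratio of cells with both genes to the number expected from the single shares for the 18 pairs with 5 or more expected cells in both T10.A pools; each point is 1 pool, with T10.A as circles and C as squares, and the dashed line marks 1. The 6 pairs of MECOM, EMX2, LMO3 and DACH1 lie above 2 in both T10.A pools, and the C pairs stay below 1.40.

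Counted per cell, T10.A cells had a mean of 0.672 and 0.642 of the 9 genes detected, against 1.86 and 1.85 in C cells. T320.A cells had 0.237 and 0.269. In T10.A, 57.0% and 58.1% of cells showed none, where 49.0% and 50.7% would if the genes were independent. The variance of that number over the independent variance was 1.06 and 1.07 in T320.A, 1.48 and 1.45 in T10.A, 1.20 and 1.25 in T320.P, 1.23 and 1.12 in T10.P and 1.11 and 1.08 in C. T10.A was thus the condition with the largest excess in both pools. The other 8 genes together had 452 and 491 CPM in T10.A cells with an LMO3 UMI, against 206 and 191 CPM in T10.A cells without one. For EMX2 the values were 488 and 528 CPM with and 214 and 206 CPM without. Cells with DACH1 gave 506 and 553 CPM and cells without it 220.0 and 207 CPM. For OSR2 there was no such gap, with 270.4 and 218 CPM in cells with it and 253 and 247 CPM in cells without it, nor for SOX5, with 246 and 259 CPM and 263 and 251 CPM.

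Other genes were ranked by the correlation, across T10.A cells of a pool, of their detection with the number of the 9 genes detected, over 5437 genes seen in 5% to 95% of cells at 3000 UMIs. Genes of a cell share its library and depth, and these correlations are a description without p. The highest were S100A1, a calcium-binding protein (0.291 and 0.280), CDKN2A, the cell cycle inhibitor p16 (0.287 and 0.273), SPINT2, an epithelial protease inhibitor (0.251 and 0.297), BST2 (0.233 and 0.244) and SNCG (0.237 and 0.236). REC8, S100A4, LGR5, KIAA1551 and CLU completed the 10 highest, down to 0.202 on average. The lowest was FN1, fibronectin (-0.354 and -0.383), followed by the contractile proteins TAGLN (-0.313 and -0.314) and ACTA2 (-0.334 and -0.289), and the 10 lowest also held S100A10, NNMT, PLK2, TGFBI, DSTN and MT2A. In C cells the 10 highest and 10 lowest genes had correlations between -0.064 and 0.069. FN1 itself was seen in 50.3% and 53.5% of T10.A cells, against 3.42% and 3.42% of C cells.

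T10.A cells were then divided by whether they had an FN1 UMI, a split chosen after FN1 had come out lowest, so that it describes the same pattern and tests nothing. LMO3 was in 2.10% and 1.79% of T10.A cells with FN1, against 18.4% and 18.6% of those without it. MECOM was in 2.88% and 2.39% of cells with FN1, against 17.0% and 19.7% without. EMX2 was in 2.33% and 2.03% with and 15.5% and 13.5% without, and DACH1 in 2.99% and 2.15% with and 13.0% and 13.2% without. LMO3, MECOM, EMX2 and DACH1 were thus mostly in cells without FN1. PAX8 differed less, at 11.3% and 12.2% with FN1 and 25.9% and 25.4% without. SOX5 went the other way, at 3.99% and 3.23% with FN1 and 1.12% and 1.24% without, and OSR2 was at 5.54% and 4.07% and 4.48% and 3.30%. T10.A cells without an FN1 UMI had MECOM and EMX2 at shares close to those of C cells, 15.6% and 17.1%, and LMO3 above them. SOX17, at 4.93% and 5.78% in T10.A cells without FN1, stayed far below the 54.2% of C cells, as did WT1 and SOX5. In C cells, of which 83 and 73 had an FN1 UMI, MECOM was at 18.1% and 17.8% with FN1 and 16.2% and 14.9% without. The shares in so few cells scattered between pools, with DACH1 at 18.1% and 9.59% of C cells with FN1, against 16.6% and 17.5% of those without, and OSR2 at 22.9% and 12.3% with and 16.7% and 15.9% without. WT1 was at 3.61% and 6.85% of C cells with FN1, against 7.13% and 8.19% of those without. T10.A cells with FN1 had median depths of 6438 and 7564 UMIs before thinning, against 9808 and 11697 UMIs in those without, and the part of depth in this split was not tested. By S100A1, the gene at the other end, LMO3 was in 19.0% and 18.3% of T10.A cells with it and 5.99% and 6.04% of those without.

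**Figure D5:**
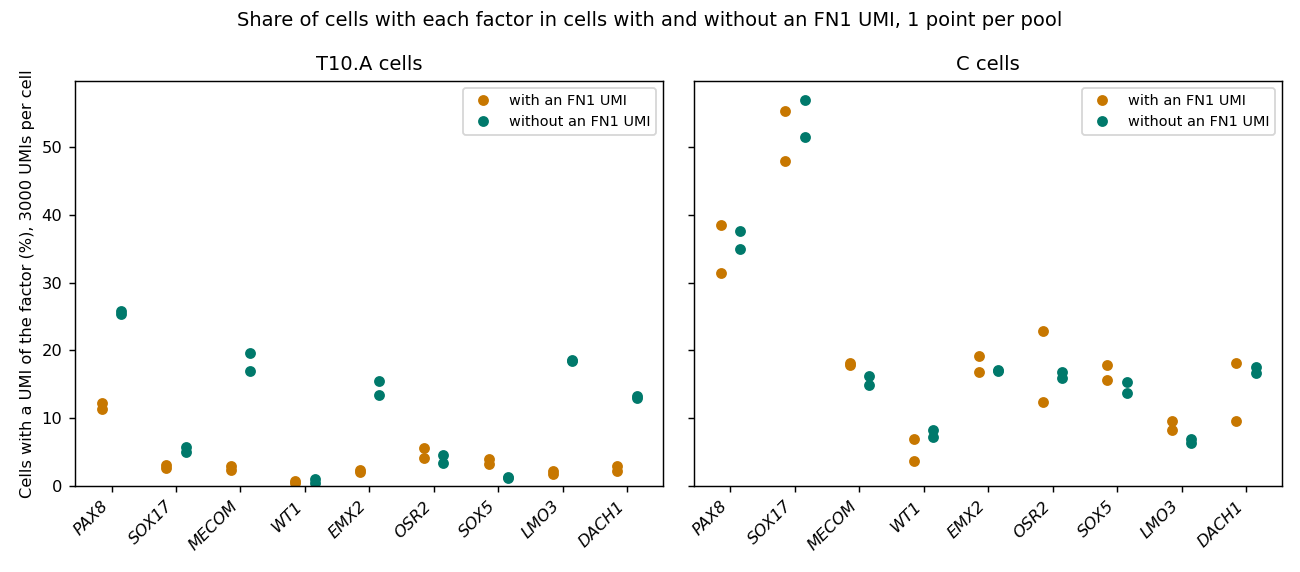
Share of cells (%) with a UMI of each gene at 3000 UMIs per cell, in T10.A cells (left) and C cells (right) with and without an FN1 UMI; each point is 1 pool. LMO3, MECOM, EMX2 and DACH1 are over 4 times as frequent in T10.A cells without FN1 as in those with it, while in C cells no gene is more than 2 times as frequent without FN1 in both pools.

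The T10.A cells also carried more of the fibroblast marker genes, and their part in the pattern was not tested. All 7 tested fibroblast markers of 8 listed rose in T10.A against C, where 33.7% of all tested genes were higher, and their summed level was 320.4 and 309 CPM in T10.A sums, against 48.8 and 48.9 CPM in C sums, where COL1A2 and LUM were at 0. COL1A1, a collagen chain, had 93.6 and 90.8 CPM in T10.A sums, against 0.884 and 1.19 CPM in C sums. COL3A1 had 78.8 and 79.9 CPM in T10.A sums, against 11.5 and 11.5 CPM in C sums. Across T10.A cells, COL1A1 correlated with the number of the 9 genes detected at -0.224 and -0.206, and COL3A1 at -0.190 and -0.212. Of the other fibroblast markers, THY1, the one with the highest level in T10.A at 135 and 127 CPM, correlated at 0.040 and 0.020. PDGFRA, PDGFRB, DCN and LUM lay between -0.057 and -0.024, below 0 in both pools. Each was in at most 1.47% of T10.A cells, under the 5% used for the ranking. Detection in so few cells holds the correlation near 0, so these values cannot tell how such markers relate to the set. In T320.A the summed level was 130.3 and 124 CPM, nearly all of it THY1, with 126 and 121 CPM in T320.A sums, against 36.2 and 36.1 CPM in C sums, and COL1A1 had 18 and 11 UMIs. In T320.P and T10.P the fibroblast sum was 41.3 and 35.5 CPM and 41.3 and 37.7 CPM. The summed epithelial markers, 6 genes led by KRT18, were 1297 and 1165 CPM in T320.A sums and 2463 and 2392 CPM in T10.A sums, against 4009 and 4113 CPM in C sums. Of these 6 genes, 3 were higher and 3 lower in T10.A against C by edgeR. The higher ones were KRT7, KRT19 and EPCAM, all less abundant than KRT8 and KRT18. CDH1, the member seen in the fewest C cells, was not among them. In thinned cells it was seen in 0.124% and 0.0936% of C cells and in 0% of T10.A cells in both pools. KRT7, a simple-epithelium keratin, had 40.5 and 42.2 CPM in T10.A sums, against 2.92 and 2.76 CPM in C sums, a log2 change of 3.86 (edgeR adjusted p 2.59e-21), and it rose by 4.69 in T10.P against C. KRT19 had 14.9 and 18.1 CPM in T10.A sums, against 9.73 and 10.7 CPM in C sums, and EPCAM had 11.0 and 11.9 CPM in T10.A sums, against 4.25 and 5.01 CPM in C sums. The mesothelial markers, of which UPK3B made up most, summed to 1.32 and 1.57 CPM in T320.A and 10.2 and 8.38 CPM in T10.A, against 44.6 and 43.3 CPM in C. Leukocyte markers summed to 0.313 and 0.523 CPM in T320.A, 1.37 and 1.48 CPM in T10.A and 12.6 and 8.17 CPM in T10.P, against 0.796 and 0.509 CPM in C, and endothelial markers did not pass 6.97 CPM in any sum.

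Genes that encode surface and secreted proteins of serous tumours were mostly lower in T320.A. Of 22 such genes 19 were tested, and 17 were lower and 1 higher in T320.A against C, where 36.9% of all tested genes were lower and 37.6% higher, with a median log2 change of -3.82. CDH6, the kidney and ovarian cadherin, had 14.0 and 14.5 CPM in T320.A sums, against 517 and 498 CPM in C sums. SPINT2 had 11.0 and 10.0 CPM in T320.A sums, against 353 and 344 CPM in C sums. Mesothelin, MSLN, had 2.19 and 2.50 CPM in T320.A sums, against 88.3 and 83.2 CPM in C sums, and the edgeR log2 changes of these 3 genes were -5.16, -5.05 and -5.18. In T10.A against C, 10 were lower and 6 higher, beside 33.4% and 33.7% of all tested genes. SPINT2, among the genes detected with the set in T10.A cells, was in 36.1% and 34.6% of them. In T320.P against C, 13 were lower and 1 was higher, beside 28.3% and 26.3% of all tested genes. In T10.P against C, 6 were lower and 10 higher, beside 29.3% and 27.3% of all tested genes. Among the higher was MUC1, with 56.5 and 52.6 CPM in T10.P sums, against 2.03 and 2.38 CPM in C sums, while 8 of the 9 regulators were lower there.

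Of 34 other developmental factors, 21 were tested. In T320.A against C, 12 were lower and 5 higher, and in T10.A against C, 5 were lower and 6 higher. Of all tested genes, 36.9% were lower and 37.6% higher in T320.A, and 33.4% and 33.7% in T10.A, so the T10.A counts were not above the share over all genes. The 5 genes of the antisense and divergent list were not analysed here. NR2F2, a nuclear receptor, had 81.2 and 83.3 CPM in T320.A sums, against 43.7 and 45.8 CPM in C sums, and so was higher where the 9 were lower. MEIS2 had 74.0 and 79.9 CPM in T10.A sums, against 46.5 and 45.9 CPM in C sums. Of 14 paralogs of the set, 11 were tested, with 4 lower and 2 higher in T320.A against C and 4 lower and 6 higher in T10.A against C. The 4 lower in each comparison are near those shares over all genes. The best measured of these were EGR1, a zinc-finger relative of WT1, with 296 and 316 CPM in T320.A sums, against 375 and 385 CPM in C sums, and LMO4, a relative of LMO3, with 40.7 and 37.3 CPM in T10.A sums, against 69.8 and 72.1 CPM in C sums. LMO4 was thus lower in T10.A while LMO3 was higher. Of 18 cofactors and partners, all tested, 5 were lower and 9 higher in T320.A against C, where 36.9% and 37.6% of all tested genes were. HDAC1, a histone deacetylase of corepressor complexes, had 78.3 and 73.3 CPM in T320.A sums, against 241 and 236 CPM in C sums, and TLE4, a Groucho corepressor, had 44.6 and 44.3 CPM in T320.A sums, against 16.1 and 17.1 CPM in C sums.

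Promoters are shown for the 4 genes that were detected in the same T10.A cells, from the RefSeq starts on GRCh38.p14, 250 bases before to 50 after each start, 5′ to 3′ on the gene's strand. Capitals mark the SOX core ACAATG or its reverse CATTGT and the homeodomain core TAATTA, searched on both strands along with the PAX core GTCACGC and the WT1-type zinc-finger core GCGTGGG. The EMX2 promoter is chr10:117542496-117542795 on the plus strand, and the others are on the minus strand: LMO3 at chr12:16608165-16608464 (1 of 5 listed starts), MECOM at chr3:169663663-169663962 (1 of 3) and DACH1 at chr13:71867155-71867454. Which start these cells used is not known from counts per gene.
EMX2: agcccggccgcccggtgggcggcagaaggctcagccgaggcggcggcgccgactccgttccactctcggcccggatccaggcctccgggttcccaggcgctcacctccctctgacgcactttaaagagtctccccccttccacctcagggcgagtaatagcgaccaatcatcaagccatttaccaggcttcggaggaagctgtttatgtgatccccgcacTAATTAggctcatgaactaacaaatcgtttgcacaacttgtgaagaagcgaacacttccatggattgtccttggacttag
LMO3: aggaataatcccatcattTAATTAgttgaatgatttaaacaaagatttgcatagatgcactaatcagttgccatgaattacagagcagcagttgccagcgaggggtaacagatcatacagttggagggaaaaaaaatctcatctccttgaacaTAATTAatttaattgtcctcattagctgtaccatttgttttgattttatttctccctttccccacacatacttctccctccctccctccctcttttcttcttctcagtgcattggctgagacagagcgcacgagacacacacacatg
MECOM: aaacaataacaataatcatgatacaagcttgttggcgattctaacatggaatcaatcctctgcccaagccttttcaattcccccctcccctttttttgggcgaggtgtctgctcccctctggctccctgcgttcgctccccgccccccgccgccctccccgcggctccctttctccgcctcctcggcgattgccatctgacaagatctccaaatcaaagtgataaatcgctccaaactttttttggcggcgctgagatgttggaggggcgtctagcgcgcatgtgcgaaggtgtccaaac
DACH1: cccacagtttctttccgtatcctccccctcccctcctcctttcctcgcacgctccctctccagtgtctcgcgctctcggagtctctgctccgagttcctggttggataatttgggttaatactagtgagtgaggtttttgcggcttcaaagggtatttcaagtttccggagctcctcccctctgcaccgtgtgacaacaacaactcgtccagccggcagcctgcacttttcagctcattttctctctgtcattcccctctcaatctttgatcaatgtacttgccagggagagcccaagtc

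TAATTA was in the EMX2 promoter 1 time and in that LMO3 promoter 2 times, and in neither the MECOM nor the DACH1 window. None of the other listed starts of LMO3 held TAATTA, while a WT1 promoter at chr11:32430764-32431063 on the minus strand held it 1 time. Of 35116 promoters of the same length, 4.84% held it. The SOX core was in none of these 4 windows, and 10.8% of all promoters held it, while the SOX5 promoter at chr12:24562442-24562741 on the minus strand, a gene outside the co-detected group, held it 2 times.
SOX5: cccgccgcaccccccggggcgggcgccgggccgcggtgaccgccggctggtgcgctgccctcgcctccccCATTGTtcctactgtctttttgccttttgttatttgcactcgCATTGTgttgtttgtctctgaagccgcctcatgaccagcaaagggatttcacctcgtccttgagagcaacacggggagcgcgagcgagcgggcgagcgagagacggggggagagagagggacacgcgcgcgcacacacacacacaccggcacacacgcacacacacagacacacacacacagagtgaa

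The PAX core was in 2.52% and the zinc-finger core in 6.98% of all promoters. Neither was in any of the 16 promoters taken for 7 of the 9 genes. SOX17 and OSR2, both on chromosome 8, were left out of the promoter search. Of the other listed starts of LMO3, 2 with overlapping windows held the SOX core, and it was the same site in both. A match of such short letters is a description of the window and says nothing of binding. In GENCODE 29 on GRCh38, the LMO3 gene spans chr12:16548373-16610594 on the minus strand and EMX2 chr10:117542444-117549546 on the plus strand. MECOM spans chr3:169083499-169663618 and DACH1 chr13:71437966-71867192, both on the minus strand.

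By Pearson correlation of log2 CPM over the 10 sums among 6638 genes, the patterns most like those of the set were found as follows, with the correlation in brackets and no p, since sums of a condition repeat it. SOX17 was nearest to KIF1B (0.995) and SDHD (0.993). PAX8 was nearest to RNF19A (0.993) and MPHOSPH8 (0.990). MECOM was followed most closely by DCDC2 (0.992) and SHROOM3 (0.989), EMX2 by ACTN4 (0.992) and MBIP (0.989) and DACH1 by NAPRT (0.993) and BMP7 (0.990). The nearest genes to LMO3 were DICER1 (0.975) and EIF4H (0.972), to WT1 FDPS (0.986) and ASS1 (0.986), to SOX5 SRGAP3 (0.990) and PSME4 (0.987) and to OSR2 CDK5RAP2 (0.989) and CEP78 (0.976).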

How the data were processed

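Kuramochi cells of 5 conditions in 2 hashed pools were measured by droplet 3′ single-cell RNA-seq, in 8 gene-expression and 2 hashtag libraries. The authors deposited whole-number UMI counts per gene and cell with the condition in each cell's name, 13800 cells by 19893 genes, and per the submitters' processing notes Cell Ranger 3.1, Seurat and GRCh38 (hg38) were used. The sources used here do not give the settings of counting, hashtag assignment and cell filtering. Cells of the matrix had at least 502 genes and at most 15.0% mitochondrial UMIs. They were 7346 of 9780 and 6454 of 9117 barcodes in the deposited barcode lists, which shared 26 barcodes, 13 of them in the matrix. A further deposited table names 7762 of the cells (56.2%) and carries the tag g1 in its name, which no label explains. Its cells hold few MKI67 UMIs, so results in listed cells are results in cells low in this proliferation gene. No doublet caller was run.

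UMI counts were added per condition and pool and tested over all 13330 genes kept by filterByExpr with edgeR's robust quasi-likelihood test (edgeR 4.0.16, R 4.3.3), TMM scaling (factors 0.868 to 1.11), 1 mean per condition, 5 residual degrees of freedom and Benjamini-Hochberg adjustment, with a threshold of 0.05. Each SE was derived from the test, as the absolute log2 change divided by the square root of its F statistic. The test and the co-detection ratio were tested on simulated data with known answers. The labels name pools and replicates but no droplet run, and the pool was taken as a shared batch. The difference between pools correlated at 0.333 to 0.607 between conditions over 2730 genes with a mean of 50 CPM or more. The pool as a block changed no call count of the 9 genes. Alternatives were DESeq2 1.42.0, its size factors, library totals alone, no low-count filter, the compared sums alone, the pool as a block, each sum left out, cells of the deposited table and cells thinned to 3000 UMIs. Shares and co-detection used thinning to 3000 UMIs (Python 3.11.15, numpy 2.4.6, scipy 1.17.1, pandas 2.3.3, matplotlib 3.10.9), with 2000, 5000 and no thinning as alternatives.

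The 9 genes and all gene lists were chosen with earlier results of these data known. All 9 genes were named in every comparison. From each list, up to 4 genes per comparison with the lowest p among those that passed with at least 20 CPM could be named. Genes like the set were the 10 highest and 10 lowest in T10.A cells, and the 2 nearest to each gene over the 10 sums. MGST1 and the splits by FN1 and S100A1 were chosen after values had been seen. Some genes that met these rules are not reported here. Hashtag counts were not used.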

Additional observations from a re-analysis of the deposited data

Results flagged for a closer look

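In an interaction term of edgeR's quasi-likelihood test, the change from persister to adapted cells differed between 320 µM and 10 µM for 8 of the 9 genes, with Benjamini-Hochberg adjusted p over all 13330 genes and 2 pools per condition. For LMO3 the difference was -6.91 on the log2 scale (adjusted p 2.67e-10), from a change of -3.28 at 320 µM and 3.64 at 10 µM. For MECOM it was -4.80 (5.25e-18), from -3.67 at 320 µM and 1.13 at 10 µM. These genes passed the test in opposite directions at the 2 doses, as did DACH1, with a difference of -4.75 (1.30e-20) from -4.46 and 0.28, although its rise at 10 µM was lost under several settings.

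EMX2 differed by -4.32 (adjusted p 1.02e-20 by edgeR), from -4.12 at 320 µM and 0.20 at 10 µM, and SOX5 by -2.87 (1.48e-10), from -2.56 and 0.30. Neither passed the test at 10 µM. OSR2 differed by -1.65 (1.27e-06), from -0.07 at 320 µM, which did not pass, and 1.58 at 10 µM. SOX17 and PAX8 fell at both doses: SOX17 differed by -2.56 (0.00355), from -5.14 and -2.59, and PAX8 by -0.60 (1.87e-06), from -1.37 and -0.76. The persister and adapted cells of each dose enter these differences once, and the T10.P sums, with 300 and 263 cells, are the smallest.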

How the results depend on the processing

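Of 1008 log2 changes of the 9 genes under alternative settings, 958 kept their direction and their side of the threshold, 33 lost the call, 6 gained one and 11 turned sign. Replacing TMM by library totals alone shifts every log2 change, by -0.23 in T320.A against C, -0.28 in T320.A against T320.P, -0.19 in T10.A against T10.P, -0.16 in T320.A against T10.A and 0.12 in T10.P against C. The turned values were PAX8 in T10.P against C (0.024 with library totals, and -0.206 to 0.0105 over the left-out sums), PAX8 in T320.P against C (0.036 with library totals, 0.064 in thinned cells, and -0.084 to 0.052 over the left-out sums), PAX8 in T320.P against T10.P (-0.033 to 0.196 over the left-out sums), WT1 in the interaction (-0.530 to 0.216 over the left-out sums), DACH1 in T10.A against T10.P (-0.082 in thinned cells) and OSR2 in T320.A against T320.P (0.39 in cells of the deposited list). The ranges also hold values that kept their sign, such as -0.206 and 0.196 for PAX8. Of the values that turned sign, only that of OSR2 passed the test, and the cause was not tested.

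Of the 9 genes, 5 to 7 were lower in T320.P against C over the left-out sums. In T320.P against T10.P, 0 were lower in thinned cells and 0 to 1 over the left-out sums. In T320.A against T10.A, 0 were higher with library totals and in thinned cells, and 0 to 1 over the left-out sums. In T320.A against T320.P, 1 was higher in cells of the deposited list. With the pool as a replicate block, 8 of the 9 were lower in T10.P against C, and no count of the 9 genes changed in any comparison.

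Over all genes, thinning cells to 3000 UMIs left fewer calls: 2190 higher and 2275 lower in T10.P against C, 2210 and 2290 in T320.P against C, 2472 and 2400 in T10.A against T10.P, 1594 and 1772 in T320.P against T10.P, and 1710 and 2013 in the interaction. Library totals gave 3027 higher genes in T320.A against T320.P.

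The number of pairs above 1 in both T10.A pools was 25 without thinning, 4 in cells outside the deposited list and 2 in cells under the median depth. In C it was 11 at 2000 UMIs, 32 without thinning and 12 outside the list. The median ratio in T10.A was 1.35 at 5000 UMIs, 1.55 without thinning, 2.14 in listed cells, 2.25 outside the list, 2.43 under the median depth and 1.79 to 1.92 with a pool left out, each over the pairs that then had 5 expected cells. In C it was 1.01 at 2000 UMIs and 1.04 to 1.08 with a pool left out. The variance of the number of genes per cell over the independent variance was, in T10.A, 1.24 at 2000 UMIs, 1.63 at 5000, 2.32 without thinning, 1.44 in listed cells, 1.51 outside the list, 1.51 under and 1.39 over the median depth. In C it was 1.03, 1.13 and 1.43 at those depths and 1.06 outside the list. The cells outside the list and the split by depth were chosen after seeing the data. With 2 pools, small T10.P sums and few UMIs per cell, absence of a pair or a call is not shown.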
